A study of Mus musculus with 6 samples.

Results

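The 10 genes described here, Scgb1a1, Scgb3a1, Scgb3a2, Bpifa1, Bpifb1, Cyp2f2, Reg3g, Muc5b, Cbr2 and Sec14l3, are known as products of club and other secretory cells of the airway epithelium. They were taken by name from a list, and all 10 were found among the 24063 gene symbols of the count tables. RNA had been sequenced from lung endothelial cells (ECs) of male C57BL6 mice, with 3 libraries from sham-operated mice, which had a thoracotomy only, and 3 from mice whose left lung had been removed 7 days before (pneumonectomy, PNX). The labels name no mutant allele and no drug for either group. The sample labels give an age of 8 weeks for both groups, whereas the methods give an older age at surgery, and each library was pooled from 2 mice. The cells had been selected with anti-CD31 magnetic beads over a pair of columns. RNA of other cell types can be carried over in such a selection, and how it came into these libraries was not tested.

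Club cells are non-ciliated cells that line the small airways. They release secretoglobins and host defence proteins into the airway lining fluid, metabolise inhaled chemicals with cytochrome P450 enzymes, and act as progenitors for secretory and ciliated cells after injury. Goblet and other secretory cells add gel-forming mucins, which the cilia of neighbouring cells move along the airway.

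Total counts ranged from 29526989 to 81282871 per library. The labels mark replicates 1 and 2 of each group, but not replicate 3, as re-used libraries, here called the earlier deposit. Replicate 3 is here called the later deposit. Replicates 1 and 2 differed by little more than counting error, with a chi-square per degree of freedom of 1.75 in sham and 1.57 in PNX against 67.9 to 86.4 for pairs with replicate 3. Their counts were therefore added up as 1 sample, so that each group has n = 2 samples. Of 14 endothelial marker genes all were detected, and their median log2 fold change, PNX against sham, was -0.16. Pecam1, which encodes CD31, was at 769 to 955 transcripts per 1000000 (TPM, a level per transcript length) in sham and 808 to 928 TPM in PNX. Endothelial markers were thus abundant in every library, and airway and alveolar epithelial transcripts were abundant beside them.

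Scgb1a1, the gene of the main secreted protein of club cells, had the highest TPM of all symbols in each sham library, at 10754, 10842 and 19521 TPM for replicates 1 to 3. In PNX it was at 5217, 5012 and 5105 TPM and ranked 2, 2 and 3. The 3 PNX values lay close together and below every sham value. The 10 genes together made up 1.33%, 1.34% and 2.29% of the TPM for sham replicates 1 to 3 and 0.646%, 0.626% and 0.607% in PNX. Scgb1a1 alone gave 80.1% to 85.1% of that sum in the 6 libraries. In bulk RNA of this kind, fewer cells of a type and less RNA per cell cannot be told apart.

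**Figure D1:**
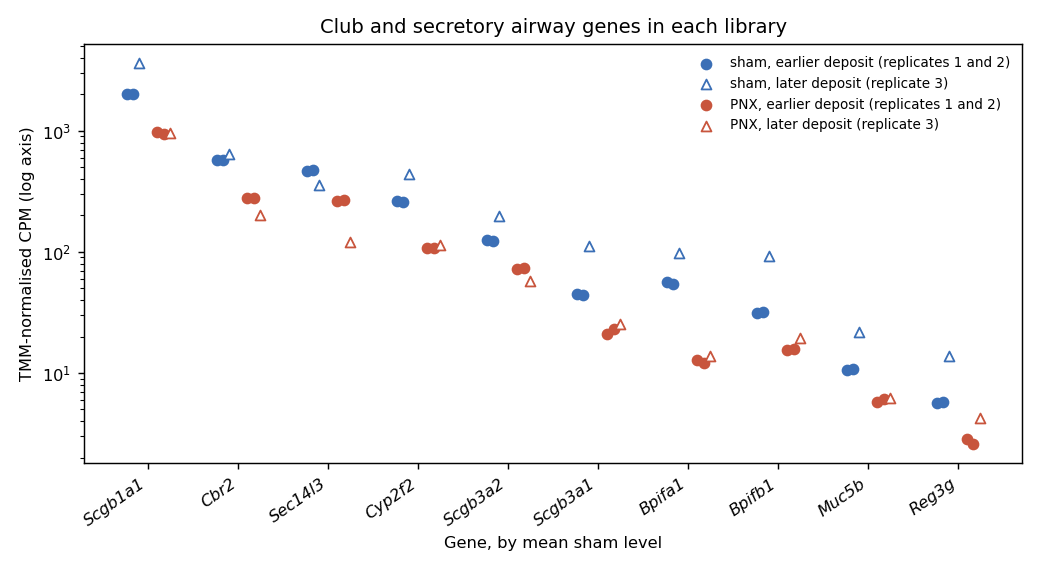
TMM-normalised counts per 1000000 (CPM, log axis) of the 10 genes in each of the 6 libraries, with sham in blue, PNX in red, circles for replicates 1 and 2 and open triangles for replicate 3. For every gene the 3 PNX libraries lie below the 3 sham libraries, and sham replicate 3 is the highest library for 9 of the 10 genes.

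All 10 genes had a lower level in each PNX library than in any sham library. Over all 16598 genes tested, 18.0% had their 3 PNX libraries below their 3 sham libraries. The median log2 fold change of the 10 genes was -1.52, with a range from -2.55 for Bpifa1 to -1.09 for Sec14l3, against a median of -0.01 over all genes tested. A fitted log2 fold change below -1 was seen for all 10 and for 3.51% of the genes tested.

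The groups were tested with the quasi-likelihood method of edgeR, and a gene was called at a Benjamini-Hochberg adjusted p under 0.01 with a log2 fold change beyond 1 in size. With 4 samples and no block, 0 of the 10 genes were called, as were 0% of all genes, with edgeR adjusted p between 0.0782 and 0.397. On simulated counts this fit also called 0 of 200 genes given a log2 fold change of 2. Its count of 0 thus does not show that levels were equal. At an unadjusted p under 0.05 there were 10 of the 10 and 2076 of all genes, 4.96% of the genes tested being lower after PNX at that p. With a term for the deposit (the replicate block), which pairs the samples of one deposit, all 10 were called as lower, where 1.23% of the genes tested were called as lower and 5.12% in either direction. This fit has few degrees of freedom left, and the count depended on the scaling of the libraries. It was 4 with DESeq2's size factors, 5 with upper-quartile scaling and 4 with library size alone, where all genes called divided into 540 higher and 84 lower, 548 and 98, and 550 and 79, against 645 and 204 with TMM. Every one of the 10 had a negative log2 fold change under each of these scalings.

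The count of 10 also moved when a library of the earlier deposit was left out, which lowers depth but removes no sample. Under the block it was 6 when sham replicate 1 was left out (0.702% of all genes called as lower), 6 when sham replicate 2 was (0.698%), 2 when PNX replicate 1 was (0.274%) and 10 when PNX replicate 2 was (1.35%). The share over all genes thus moved with the count of the 10. Their median log2 fold change hardly moved, at -1.43, -1.43, -1.46 and -1.43 in these 4 fits against -1.43 with all libraries. DESeq2 called 7 of the 10 on the 4 samples, all but Muc5b, Reg3g and Sec14l3, where it called 0.486% of all genes as lower, and limma-voom called 0, with 9 of the 10 and 13.1% of all genes at an unadjusted p under 0.05. With the 6 libraries as separate replicates edgeR called Bpifa1 and Cbr2 and DESeq2 called 9, all but Sec14l3, against 0.240% and 1.40% of all genes called as lower. DESeq2 with the replicate block called 6, against 1.29% of all genes called as lower.

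**Figure D2:**
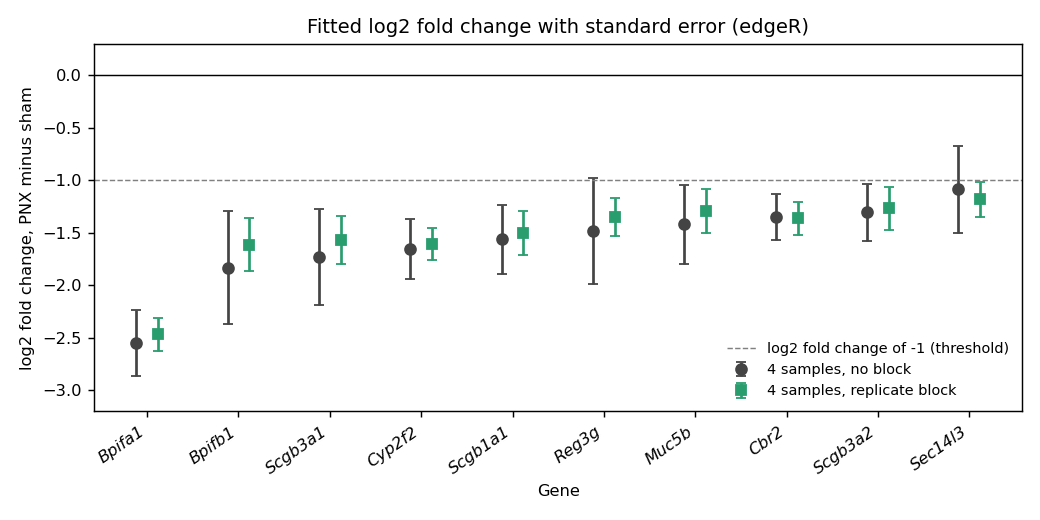
Fitted log2 fold change, PNX minus sham, of each gene with its standard error as bars, without a block (circles) and with the replicate block (squares), and the threshold of -1 as a dashed line. All 20 values lie below -1, and Bpifa1 lies lowest in both fits.

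The secretoglobins are small secreted proteins of the airway lining fluid. Scgb1a1 lies on the minus strand of chromosome 19 of GRCm38 (9083636 to 9087958). Its TMM-normalised level, in counts per 1000000 (CPM), was 2008, 2024 and 3626 for sham replicates 1 to 3 and 977, 940.4 and 950.2 in PNX. The group means were 2828 ± 1139.8 CPM and 958 ± 7.91 CPM (SD, n = 2 samples each). The spread was thus far larger in sham than in PNX. The log2 fold change was -1.56 (standard error, SE, 0.33) with an adjusted p from edgeR of 0.169 without the replicate block and 0.00297 with it. Over the alternatives with at least 2 samples in each group, the adjusted p ranged from 2.48e-06 (DESeq2 on the 6 libraries) to 0.368 (DESeq2 with the replicate block). For Scgb1a1, Scgb3a1, Scgb3a2 and Bpifb1 the lowest adjusted p over the alternatives came from DESeq2 on the 6 libraries. That fit counts replicates 1 and 2 as separate though they are nearly the same data.

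Scgb3a1, on the plus strand of chromosome 11 (49663610 to 49665118), encodes a secretoglobin made in the larger airways. It was at 45.0, 44.4 and 112 CPM in the sham libraries and 20.9, 23.0 and 25.3 after PNX. Its log2 fold change was -1.73 (SE 0.46, with adjusted p from edgeR of 0.239, or 0.00377 under the block and 7.70e-04 to 0.383 over the alternatives). Scgb3a2, a related secretoglobin on the plus strand of chromosome 18 (43764289 to 43767399), was at 126, 124 and 196 CPM in the sham libraries and 72.4, 73.1 and 57.3 after PNX. This is a log2 fold change of -1.30 (SE 0.27, with adjusted p from edgeR of 0.168, or 0.00597 under the block and 3.46e-05 to 0.343 over the alternatives). Scgb3a1, Scgb3a2 and Bpifb1 each have 2 RefSeq transcripts whose counts differed by at most 15 in any library, so their summed counts may hold shared reads more than once.

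BPI fold proteins coat the airway surface and bind bacterial lipids. Bpifa1 (chromosome 2, plus strand, 154142880 to 154149219) encodes the protein also known as SPLUNC1, which has antimicrobial activity and limits sodium uptake by the epithelium. It was at 56.3, 54.1 and 97.7 CPM in the sham libraries and 12.9, 11.997 and 13.7 after PNX, with group means of 76.7 ± 30.04 and 13.1 ± 0.840 CPM (SD, n = 2 samples each). No sham library came near the PNX libraries. Its log2 fold change of -2.55 (SE 0.31) was the largest in size of the 10, with an adjusted p from edgeR of 0.0782 without the block and 8.51e-05 with it, and of 2.05e-41 to 0.108 over the alternatives.

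Bpifb1, of the same gene cluster (chromosome 2, plus strand, 154190818 to 154220369), encodes a BPI fold protein of goblet and minor mucosal gland cells. It was at 31.0, 32.2 and 93.3 CPM in the sham libraries and 15.6, 15.7 and 19.4 after PNX. Sham replicate 3 lay furthest from the other sham libraries for this gene, and the SE was the largest of the 10. The log2 fold change was -1.83 (SE 0.54, with adjusted p from edgeR of 0.278, or 0.00527 under the block and 0.00248 to 0.439 over the alternatives).

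The sequences before the start sites of Bpifa1, the gene with the largest difference, and of Scgb3a1, the secretoglobin gene with an entry in the RefSeq promoter table (GRCm38.p6), are shown because motifs of factors that bind airway promoters were looked for in them. The 250 bases before each start are given in the direction of the gene, as chr2:154142630-154142879 (plus strand) and chr11:49663345-49663594 (plus strand), with capitals for CTCAAG or its reverse complement CTTGAG, letters within sites of the airway factor NKX2-1.
Bpifa1: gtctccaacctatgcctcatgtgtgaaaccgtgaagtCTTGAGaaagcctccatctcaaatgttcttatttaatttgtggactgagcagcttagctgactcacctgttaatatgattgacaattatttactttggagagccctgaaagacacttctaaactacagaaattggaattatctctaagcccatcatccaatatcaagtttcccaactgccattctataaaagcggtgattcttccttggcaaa
Scgb3a1: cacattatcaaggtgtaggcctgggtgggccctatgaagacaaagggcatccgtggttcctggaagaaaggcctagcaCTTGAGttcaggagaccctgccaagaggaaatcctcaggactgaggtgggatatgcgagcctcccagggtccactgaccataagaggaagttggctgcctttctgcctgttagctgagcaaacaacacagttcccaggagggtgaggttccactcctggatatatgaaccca

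CTTGAG begins 213 bases before the start of Bpifa1 and 172 before that of Scgb3a1, and CTCAAG 39 bases before the start of Reg3g. Of the 10 genes, 7 have 8 promoters in the table, and 3 of the 8 hold these letters on either strand, as do 13.3% of all 32851 promoters over the same length. Neither TGTTTAC, a forkhead motif (3.17% of all promoters), nor TTGCNNAA, a C/EBP motif (9.56%), was in any of the 8. The 3 motifs do not overlap here, and a match is a description of the letters in this window only.

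Reg3g and Muc5b serve defence and clearance, as a lectin that kills bacteria and as the gel-forming mucin that is needed for mucociliary transport. Reg3g (chromosome 6, minus strand, 78466269 to 78468872) had the lowest CPM of the 10, at 5.60, 5.80 and 13.7 in sham and 2.85, 2.57 and 4.26 in PNX. From the 126 to 467 counts behind these values, the log2 fold change was -1.48 (SE 0.51, with adjusted p from edgeR of 0.341, or 0.00269 under the block and 3.25e-06 to 0.655 over the alternatives). Muc5b (chromosome 7, plus strand, 141839070 to 141873084) was at 10.6, 10.8 and 21.9 CPM in the sham libraries and 5.76, 6.10 and 6.26 after PNX. Its log2 fold change was -1.42 (SE 0.38, with adjusted p from edgeR of 0.242, or 0.00617 under the block and 1.91e-06 to 0.438 over the alternatives).

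Cyp2f2 and Cbr2 encode enzymes of foreign compound metabolism, a cytochrome P450 that activates naphthalene in club cells and a carbonyl reductase of the lung. Cyp2f2 (chromosome 7, plus strand, 27119909 to 27133660) was at 264, 257 and 439.8 CPM in the sham libraries and 108, 107 and 115 after PNX. The group means were 351 ± 127 and 112 ± 4.98 CPM (SD, n = 2 samples each), and the log2 fold change was -1.65 (SE 0.28, with adjusted p from edgeR of 0.121, or 5.81e-04 under the block and 1.13e-21 to 0.216 over the alternatives). An annotated antisense gene, Gm15883, overlaps Cyp2f2, and no source used here says whether reads were counted by strand, so reads of the pair cannot be told apart. No annotated gene overlaps any of the other 9.

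Cbr2 (chromosome 11, minus strand, 120729489 to 120732114) was at 571, 569 and 648 CPM in the sham libraries and 277, 279 and 200.4 after PNX. Unlike for most of the genes, the 3 sham libraries lay close together. The group means were 610.2 ± 54.9 and 240.0 ± 55.5 CPM (SD, n = 2 samples each), for a log2 fold change of -1.35 (SE 0.22, with adjusted p from edgeR of 0.111, or 0.00146 under the block and 4.99e-16 to 0.282 over the alternatives).

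Sec14l3 (chromosome 11, plus strand, 4064841 to 4077736) encodes a lipid-binding protein of the Sec14 family. It was at 469, 470.1 and 356 CPM in the sham libraries and 265, 269 and 121 after PNX. It was the only one of the 10 with a lower level in sham replicate 3 than in the other sham libraries, and PNX replicate 3 was lower still. Its log2 fold change was the smallest in size, at -1.09 (SE 0.41, with adjusted p from edgeR of 0.397, or 0.00337 under the block and 4.69e-11 to 0.766 over the alternatives). Its relatives Sec14l2 and Sec14l4, chosen after their values were seen because they could share reads, had 2891 and 5100 counts over the 6 libraries together, against 3592 to 37428 counts of Sec14l3 in a single library.

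Compared per transcript length, the order of the sham levels was Scgb1a1, then Cbr2 at 1396 to 1598 TPM, then Cyp2f2 (354 to 609 TPM), Scgb3a2 (258 to 409 TPM) and Sec14l3 (228 to 300.1 TPM), where the range of Scgb3a2 overlaps both others. Next came Bpifa1 (123 to 223 TPM) and Scgb3a1 (91.2 to 229.8 TPM), which overlap each other, and Scgb3a1 was just above Sec14l3 in sham replicate 3. Lower were Bpifb1 (23.3 to 70.3 TPM) and Reg3g (18.1 to 44.7 TPM), which also overlap. Muc5b, which has a very long transcript, was lowest at 1.78 to 3.70 TPM. In PNX the order began with Scgb1a1 and Cbr2 (493 to 683 TPM) too, and ended with Muc5b at 0.961 to 1.05 TPM.

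The levels were also set relative to Scgb1a1 in the same library. For 7 of the other 9 genes the ranges of this ratio overlapped between sham and PNX, which does not show that the ratio was the same. The ratio was also compared between libraries of the same replicate number, which share a deposit. It was higher in PNX in all 3 comparisons for Scgb3a2, Muc5b and Sec14l3, lower in all 3 for Bpifa1 and Cyp2f2, and mixed for the other 4. Replicates 1 and 2 are nearly the same data and are matched between the groups by number only. The 3 comparisons are therefore not independent. Bpifa1 was at 1.19%, 1.13% and 1.14% of the Scgb1a1 TPM for sham replicates 1 to 3 and at 0.561%, 0.541% and 0.611% in PNX. It was thus lower relative to Scgb1a1 in each PNX library. Cyp2f2 was at 3.38%, 3.27% and 3.12% in sham and 2.85%, 2.92% and 3.11% in PNX, ranges that do not overlap but nearly touch. These ratios were not tested. Scgb3a2 was at 2.42%, 2.38% and 2.09% of Scgb1a1 in sham and 2.87%, 3.01% and 2.34% in PNX. For Sec14l3 the ratio differed more between the deposits than between the groups, at 2.78%, 2.77% and 1.17% in sham and 3.23%, 3.41% and 1.52% in PNX. That of Cbr2 was likewise lower in replicate 3 of both groups, at 8.19% and 9.67% against 12.9% to 13.6% in the other 4 libraries.

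**Figure D3:**
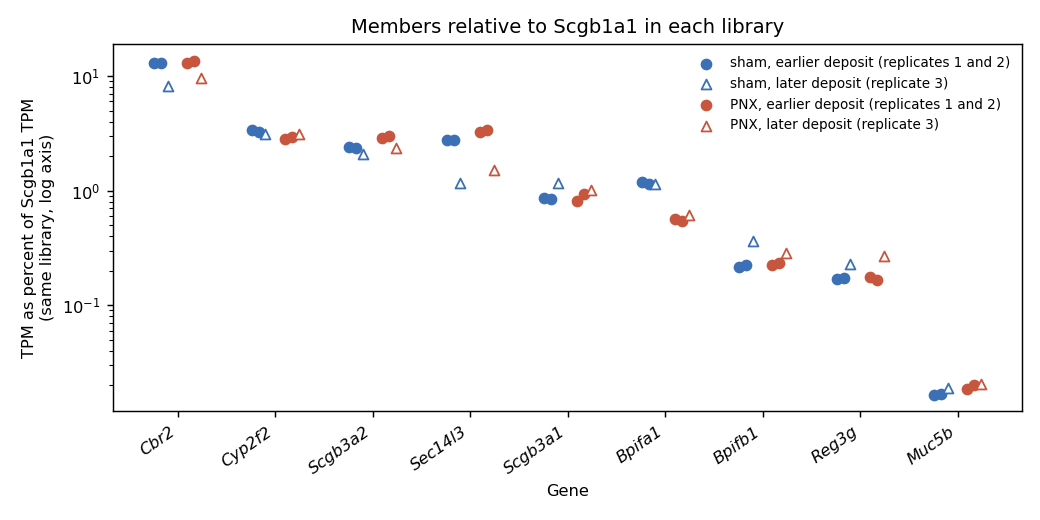
TPM of each gene as a percentage of the Scgb1a1 TPM of the same library (log axis), with sham in blue, PNX in red, circles for replicates 1 and 2 and open triangles for replicate 3. Bpifa1 is at 1.13% to 1.19% in sham and 0.541% to 0.611% in PNX, while Sec14l3 and Cbr2 are lower in both triangles than in the circles.

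The size of the difference was not the same in the 2 deposits. In the earlier deposit the sham level was 1.72 (Scgb3a2) to 4.42 (Bpifa1) times the PNX level, with a median of 2.05, and in the later deposit 2.93 (Sec14l3) to 7.13 (Bpifa1) times, with a median of 3.66. All 10 genes had the larger ratio in the later deposit. For Scgb1a1 the ratio was 2.10 in the earlier deposit (exact 95% interval 2.09 to 2.11, from 303795 and 135496 counts) and 3.82 in the later one (3.77 to 3.87, from 123417 and 28102 counts). For Bpifa1 it was 4.42 (4.199 to 4.66) and 7.13 (6.43 to 7.93), and for Reg3g, with the fewest counts, 2.09 (1.85 to 2.37) and 3.22 (2.64 to 3.95). The intervals of the deposits do not overlap for any of the 10, but they cover counting error only, and the difference between the deposits was not tested because it would leave no degree of freedom among the 4 samples.

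**Figure D4:**
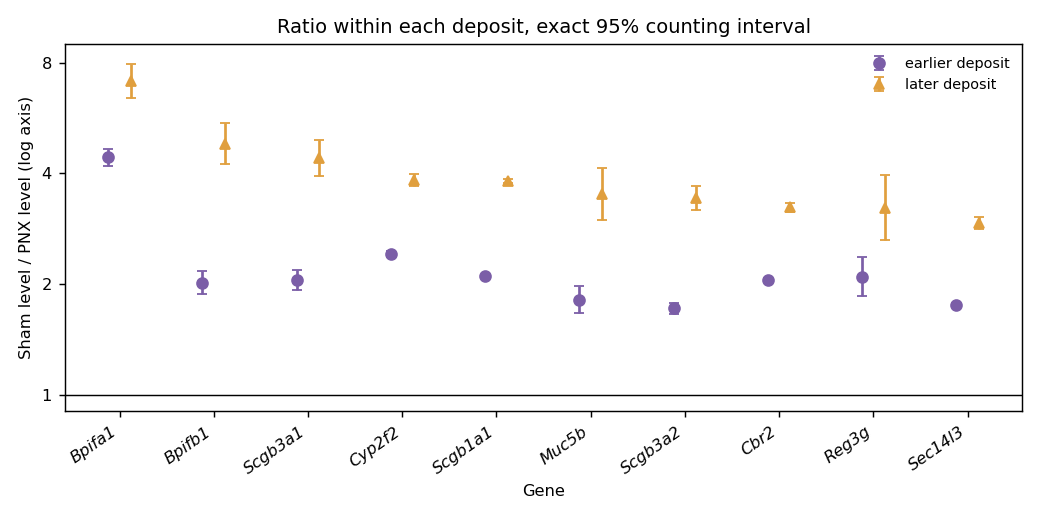
Ratio of the sham to the PNX level of each gene (log axis, 1 means no difference) in the earlier deposit (circles) and the later one (triangles), with exact 95% intervals for counting error as bars. Every ratio is above 1, and every triangle lies above the circle of the same gene.

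The deposits were also compared within each group. Sham in the later deposit was above sham in the earlier one for 9 of the 10 genes, with a median log2 difference of 0.83, where the median over all genes was -0.01. In PNX the later deposit was above the earlier one for 6 of the 10, with a median of 0.08 and a median over all genes of 0.01. The ratio of the later to the earlier deposit in sham was 2.95 for Bpifb1, 2.49 for Scgb3a1 and 2.41 for Reg3g, and 0.757 for Sec14l3. In PNX it ranged from 0.454 for Sec14l3 to 1.56 for Reg3g. Cbr2 was at 1.14 in sham and 0.719 in PNX, so that for Cbr2 and Sec14l3 the gap lay more in the PNX libraries. Without sham replicate 3 the median log2 fold change of the 10 genes was -0.997, and without sham replicates 1 and 2 it was -1.97.

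Other genes of club and goblet cells, from a list of 34 of which 29 were tested, had a median log2 fold change of -0.66, with 24 below 0 and 5 above. None of the 29 was called by edgeR without the block, with 12 at an unadjusted p under 0.05, while with the replicate block 5 were called as lower and 1 as higher, the latter against 3.89% of all genes tested. Among the 5 were the cytochrome P450 genes Cyp2a5, Cyp2b10 and Cyp4b1 and Gabrp, a GABA receptor subunit gene, with Cyp2b10 and Gabrp named after their values were seen. Cyp4b1, the most abundant of the list, was at 558, 539.8 and 422 CPM in the sham libraries and 254, 255 and 178 after PNX, with a log2 fold change of -1.17 (SE 0.25, with adjusted p from edgeR of 0.173, or 2.56e-04 under the block). Cyp2a5 was at 10.04, 9.23 and 11.2 CPM in the sham libraries and 3.16, 3.39 and 2.20 after PNX, a log2 fold change of -1.91.

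Other abundant genes of the list differed less. Aldh1a1, a retinaldehyde dehydrogenase gene, had a log2 fold change of -0.57 (adjusted p from edgeR 0.683, or 0.0291 under the block), Por, the reductase that passes electrons to P450 enzymes, -0.50 (0.242 and 0.00500) and Hp, haptoglobin, -0.35 (0.520 and 0.0904). The trefoil factor gene Tff2 was at 0.890, 1.04 and 3.50 CPM in the sham libraries and 0.546, 0.393 and 0.812 after PNX, with a log2 fold change of -1.81 (adjusted p from edgeR 0.431, or 0.0179 under the block). Retnla, a resistin-like gene induced in type 2 inflammation, went the other way, at 8.83, 10.1 and 15.9 CPM in the sham libraries and 46.0, 44.0 and 32.3 after PNX. Its log2 fold change was 1.62 (SE 0.32, with adjusted p from edgeR of 0.157, or 0.00444 under the block).

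Of 12 transcription factor genes of the airway epithelium 11 were tested, and all 11 had a log2 fold change below 0, with a median of -0.96. The 3 PNX libraries lay below the 3 sham libraries for 8 of these 11, and for 15 of the 29 other club and goblet cell genes. With no block 0 were called, with 6 at an unadjusted p under 0.05, and with the replicate block 1 was called, Foxa1, a forkhead factor of endodermal epithelia. Foxa1 was at 8.81, 8.16 and 7.37 CPM in the sham libraries and 4.10, 4.11 and 2.10 after PNX (log2 fold change -1.33, SE 0.37, with adjusted p from edgeR of 0.257, or 0.00426 under the block). Nkx2-1, a factor of lung epithelial identity that alveolar cells express too, was at 50.4, 48.2 and 28.4 CPM in the sham libraries and 33.1, 33.3 and 11.5 after PNX (log2 fold change -0.79, adjusted p from edgeR 0.667, or 0.00881 under the block). Foxa2, Elf3, Ehf and Grhl2 had log2 fold changes of -0.86, -0.75, -1.08 and -1.15, and 0 of these 4 were called in either fit. None of the 13 genes with a fold change given here from both lists changed sign in any alternative.

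Many markers of ciliated and alveolar cells were lower in PNX as well, and their part in the result was not tested. Of 12 ciliated cell markers tested, 11 were below 0, with a median log2 fold change of -1.32, and with the replicate block 8 were called as lower. The share of all genes called as lower with the block was 1.23%. The 3 PNX libraries lay below the 3 sham libraries for 10 of the 12 ciliated and 12 of the 14 alveolar type 2 markers. This held for 0 of the 10 alveolar type 1 and 5 of the 10 general epithelial markers, and for 18.0% of all genes. Foxj1, the master factor of motile cilia, was at 19.4, 19.99 and 23.4 CPM in the sham libraries and 9.82, 11.0 and 8.89 after PNX, a log2 fold change of -1.16. The summed level of the ciliated list was 219 to 242 CPM in sham and 128 to 148 CPM in PNX. Of 14 alveolar type 2 markers 13 were below 0 (median -0.84), with 4 called as lower with the block, and their sum was 5426 to 5734 CPM in sham and 2082 to 3562 CPM in PNX. Of 10 alveolar type 1 markers 8 were below 0 (median -0.59, 2 called with the block), with a sum of 722 to 1665 CPM in sham and 385 to 1212 CPM in PNX. The 10 general epithelial markers had a median of -0.54 and a sum of 269 to 313 CPM in sham and 253 to 258 CPM in PNX, and 0 were called with or without the block, with 3 at an unadjusted p under 0.05 without it. No marker of these 4 lists was at 0 in all libraries. The median of the 10 club and secretory genes was the lowest of the 16 lists, which are not independent samples and were not tested against each other.

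Lists of other cell types gave other values. The 14 endothelial markers summed to 6482 to 7817 CPM in sham and 6092 to 6671 CPM in PNX, with 0 called in either fit and 0 at an unadjusted p under 0.05 without the block. Fibroblast (8 genes, median 2.00), mesothelial (5 genes, 1.11) and macrophage markers (7 genes, 0.47) had medians above 0. With the block 5, 4 and 2 of them were called as higher, against 3.89% of all genes, and 0 as lower. Smooth muscle (5 genes), platelet and red cell (6 genes), neutrophil (4 genes) and B and T cell markers (5 genes) had medians of 0.13, 0.13, -0.15 and -0.91. Of 7 basal cell markers 5 were below 0, with a median of -1.12. The basal list summed to 3.76 to 5.38 CPM in sham and 5.87 to 7.27 CPM in PNX. Much of the PNX sum was Krt14, at 0.226 to 0.394 CPM in sham and 3.52 CPM in each PNX library.

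**Figure D5:**
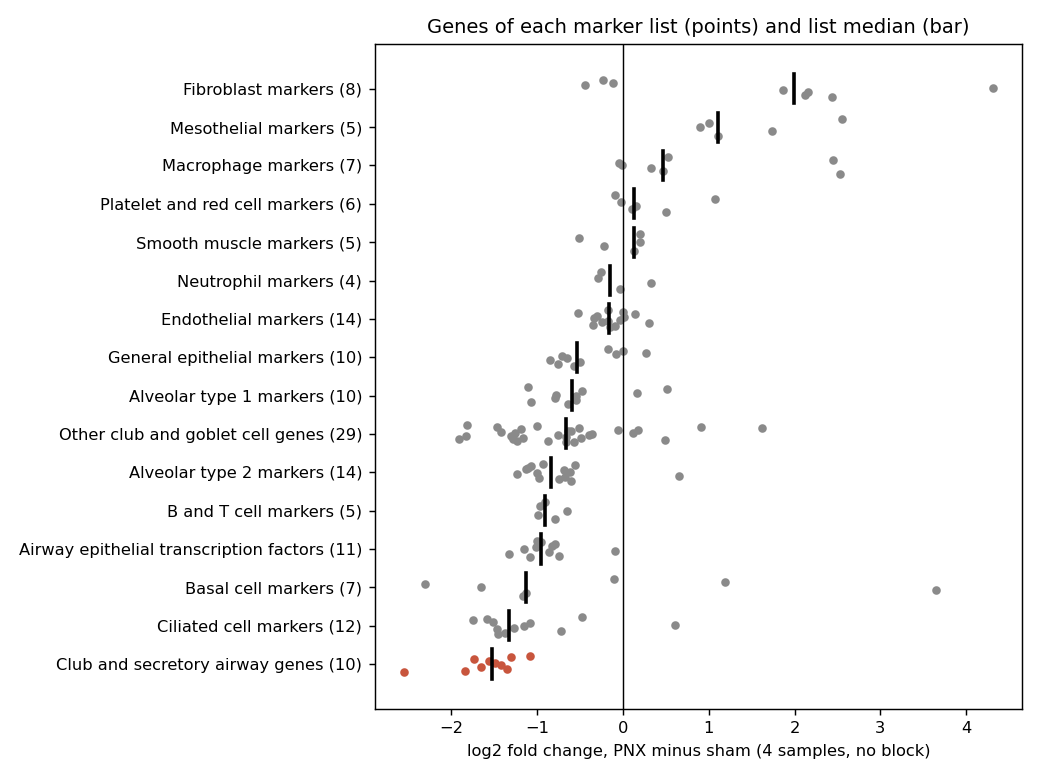
log2 fold change, PNX minus sham, of every tested gene of each marker list (points) with the list's median (black bar) and its number of tested genes in parentheses, the 10 club and secretory genes in red. The red points all lie below -1 around a median of -1.52, the ciliated list has a median of -1.32 and the fibroblast list one of 2.00.

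The genes whose pattern over the 6 libraries was most like that of Scgb1a1 were found by a root mean square difference. It was taken on log2(CPM + 0.5), each gene centred on its own mean. Compared were 3043 genes that varied by at least 1 on that scale. The nearest that are not among the 10 included Sult1d1 (0.06), D130043K22Rik (0.09), Eno4 (0.09), Spag16 (0.09), Efcab6 (0.10), Kndc1 (0.10) and Rsph4a (0.10). Sult1d1, a sulfotransferase gene, was at 1.67, 1.52 and 3.11 CPM in the sham libraries and 0.546, 0.560 and 0.507 after PNX. These PNX levels are close to the 0.5 CPM added to every value. The addition narrows the differences of genes at such low levels, so their likeness to Scgb1a1 depends on it. Of the 10 genes, Cyp2f2 ranked 3 in likeness to Scgb1a1, at 0.08, and Muc5b, Scgb3a1 and Scgb3a2 ranked 20, 37 and 40. Bpifa1 and Sec14l3 were least alike, at ranks 527 and 735.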

How the data were processed

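The authors isolated RNA from CD31-selected lung cells, made stranded mRNA libraries, aligned paired-end reads to mm10 (STAR is named in the submitters' processing notes) and deposited, for each library, a count, FPKM and TPM of each of 33068 RefSeq transcripts. The study's methods name Basepair Tech for read counting. The counting rule and the release of the annotation have not been given in the sources used here. The deposited counts are unnormalized whole numbers, and only they were tested. The deposited TPM values, scaled by the authors per transcript length to 1000000 per library, were used, for the transcript with the highest count, to compare levels between genes. The deposited FPKM values were not used.

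The counts of each symbol were summed. Groups came from the sample titles. Replicates 1 and 2 were set against each other in a chi-square test on the symbols of 1 transcript that had 20 or more counts in the pair, and then summed. Genes were tested in R 4.3.3 with edgeR 4.0.16 (TMM, filterByExpr, glmQLFit, glmQLFTest), with DESeq2 1.42.0 and limma 3.58.1 as alternatives, and thresholds as in the study's methods. The standard error is the log2 fold change divided by the square root of F. For the replicate block, samples were paired by deposit, as inferred here from the re-use tags. The sample titles state no pairing of sham with PNX. The later-minus-earlier differences of sham and of PNX were compared across 13910 genes, which are not independent. These differences had a Pearson's r of 0.734 and a Spearman's rho of 0.745. The edgeR fit of 4 samples with the block has 1 residual degree of freedom. P-values of the fits on the 4 samples measure the spread between these samples, each from pooled mice. Fits on the 6 libraries count replicates 1 and 2 as separate, so their p-values rest in part on near-duplicates. Intervals are Clopper-Pearson intervals at 95%. The fits of 4 samples by edgeR with and without the block, DESeq2 without it and limma-voom were tested on simulated counts. Of 200 genes given a log2 fold change of 2, edgeR called 200 with the block and 0 without it. DESeq2 called 183 and limma-voom 0, and 0 unchanged genes were called by any of them. A count of 0 from edgeR without the block or from limma-voom therefore does not show that levels were equal. The simulated fold change was the same for all changed genes, whereas the measured club and secretory genes all differed more in the later deposit. The 200 calls with the block thus do not show how that fit performs on such genes. Gene positions were read from GENCODE vM21 (GRCm38, which is mm10).

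The genes, lists and tests were chosen with earlier results of these data known. By the rule for named genes, each of the 10 is described in every library, and from each other list the most abundant genes and those with the largest log2 fold changes, with the 8 nearest profiles to Scgb1a1, are named. Some genes that this rule names are not reported here.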

Additional observations from a re-analysis of the deposited data

How the results depend on the processing

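All 10 genes kept a negative log2 fold change in each of 31 alternatives (310 values, from -2.92 to -0.63). Of these values, 98 passed the thresholds of their fit and 212 did not, over fits that called from 0 to 1186 of all genes. In edgeR on the 4 samples, 0% of all genes were called as lower without the block and 1.23% with it. The fits reuse the same libraries, so the pooled counts are not independent results. Their adjusted p ranged from 2.05e-41 to 0.766 over all alternatives, and from 4.68e-05 to 0.0345 over the 11 edgeR fits with the replicate block. The median of the 10 moved by less than 0.592, the SD between the medians of the 2 deposits, in every alternative. That SD is of 2 values from these same data, so it is a wide bound and not a test. The median moved most without sham replicate 3, from -1.52 to -0.997. The 16 other genes with a fold change named here kept their sign in all 493 values, of which 84 passed the thresholds, pooled over the same fits.

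The numbers of genes called moved. With 4 samples and no block, 0 genes were called with other scalings, other filters on low counts, an adjusted p under 0.05 and the transcript with the highest count, and by limma-voom. With the 6 libraries as separate replicates, edgeR called 409 genes and 2 of the 10, or 1104 and 10 with the replicate block. DESeq2 called 585 and 7 on the 4 samples, 927 and 9 on the 6 libraries and 815 and 6 with the replicate block, where Scgb1a1, Scgb3a1, Scgb3a2 and Bpifb1 were not called. The replicate block in edgeR gave 849 genes and 10 of the 10, with DESeq2's size factors 624 and 4, with upper-quartile scaling 646 and 5, with library size alone 629 and 4, with an adjusted p under 0.05 1186 and 10, and with the transcript with the highest count, an alternative chosen after seeing the data, 726 and 7. The causes were not tested.

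When 1 library was left out, all genes called ranged from 0 to 863 and the 10 from 0 to 10. The highest values were with the replicate block and without PNX replicate 2, and without a block only the fit without PNX replicate 3 called genes, 2 in all and 0 of the 10. The block could not be fitted without replicate 3 of a group, and a group left with 1 sample is assumed to vary like the other. Depth limits Reg3g and Muc5b most, with 126 to 847 counts per library.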

Other observations

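Among the basal cell markers, Krt14 and Krt5, which encode the keratin pair of basal cells, had log2 fold changes of opposite sign. Krt14 had 18, 28 and 8 counts for sham replicates 1 to 3 and 264, 233 and 104 in PNX, or 0.226, 0.394 and 0.235 CPM and 3.52, 3.52 and 3.52 CPM, for a log2 fold change of 3.65 (SE 0.32, with adjusted p from edgeR of 0.0720 without the replicate block and 1.31e-04 with it). Krt5 had 27, 22 and 9 counts in sham and 4, 4 and 2 in PNX, with a log2 fold change of -2.31 (SE 0.52, with adjusted p from edgeR of 0.186 and 0.0203). Over the alternatives that could test them, Krt14 passed the thresholds in 15 of 30 and Krt5 in 4 of 29, with no change of sign.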
